A study of Mus musculus with 3 samples.

Results

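The genes described here encode the protein folding and redox machinery of the cell: heat shock proteins, J proteins, the CCT ring, disulfide and proline isomerases, lectin chaperones and antioxidant enzymes. They were taken by name alone, under a rule that uses no measured value. The group itself was chosen with earlier results of these data known. A gene entered where its probe had 1 symbol in the platform annotation that began with Hsp, Dnaj, Cct and a digit, Pdia, Fkbp, Ppi and a letter, Calr, Canx, Prdx, Txn, Glrx, Gpx or Sod and a digit, or that was Cat, Tcp1 or P4hb. This gave 91 genes on 171 probes, of 12336 probes with 1 symbol. Expression in purchased mouse liver total RNA, labelled with Cy5, was compared on 3 arrays with Universal Mouse Reference RNA (UMRR), a purchased pool of RNA from mouse cell lines, labelled with Cy3. The labels give no strain, age, sex or treatment for either RNA, and name 1 catalogue product for each, so the arrays repeat 1 RNA pair in 1 dye orientation. The p-values below therefore cover only how far repeated arrays scatter, which can be technical, and each ratio includes any dye bias.

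Molecular chaperones bind unfolded protein and release it in cycles driven by ATP. Hsp70 proteins do this with J proteins, which bring substrate and start the cycle, and with exchange factors that reset it. The endoplasmic reticulum has its own set, which folds secreted and membrane proteins, forms their disulfide bonds and is induced through the unfolded protein response. Hepatocytes secrete most plasma proteins, and their oxidative metabolism yields hydrogen peroxide and superoxide, which peroxidases, peroxiredoxins, catalase and superoxide dismutases remove.

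Values are log2 ratios of liver over UMRR, so 1 stands for a level 2-fold higher in liver. The log base is assumed: were the deposited values natural logs, each would have to be multiplied by 1.44. Hepatocyte secretory genes set the direction. All 4 that were measured on every array (Apoc3, Ambp, Rbp4 and Vtn) had means of 4.01 or above. Since they set the direction, they are no separate check of the tissue label. Between 23.5% and 32.2% of the values of an array were exactly 0, which was read as no measured ratio. Array 1 stood apart: over the genes described here, it differed from the mean of the other arrays by a median of 0.27, against 0.15 between arrays 2 and 3. The same medians over all genes were 0.24 and 0.12. The liver RNA also carried genes of pancreatic acinar cells, which make large amounts of reticulum chaperones. Of 30 such markers 16 were tested and 15 were higher in liver, with medians of 3.97, 4.53 and 4.41 on arrays 1, 2 and 3, while Bhlha15 was at exact 0 on every array. Spink1 (1.45) and Amy2a5 (0.53) were the lowest of those higher, and Cel (0.22) did not pass the test. Erythroid markers, of which 3 of 5 tested were higher, had medians of 2.31, 3.46 and 3.49. The part of either cell type in the results below was not tested, and in such bulk RNA fewer cells of a type and less RNA per cell cannot be told apart.

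Of the 91 genes, 68 had a probe with a ratio on all 3 arrays and were tested, 15 had a ratio on only some arrays and 8 were at exact 0 throughout. In the limma fit over all 5520 genes with Benjamini-Hochberg adjustment, 19 of the 68 were higher in liver and 21 lower at an adjusted p of 0.05, while 28 did not pass. The shares, 27.9% higher and 30.9% lower, stood beside 30.1% and 33.9% of all genes, and the 58.8% past the test in either direction beside 64.0%. A difference of at least 2-fold on every array was found for 11 genes on the liver side (16.2%) and 4 on the UMRR side (5.88%), against 9.46% and 9.53% of all genes. The median of the 68 genes was -0.048, close to that of all genes at -0.028. The shares past the test lay near those of all genes, while the share at least 2-fold higher was above that of all genes and the share at least 2-fold lower was below it.

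The antioxidant and redox class held the most genes at least 2-fold higher in liver on every array, led by the glutathione peroxidase Gpx1. These were 5 of 14 tested, beside 9.46% of all genes. Proline isomerases of the cytosol and nucleus lay on the UMRR side, with a median of -0.71. Among them 8 of 11 were lower, beside 33.9% of all genes, and none higher, beside 30.1%. The 3 tested mitochondrial chaperones that the naming rule took were all higher, beside 30.1% of all genes, with a median of 0.71. Trap1, the Hsp90 of mitochondria, is not taken by the rule and was lower (-1.85, adjusted p = 1.90e-05). The cytosolic heat shock proteins (median 0.068 over 8 genes), the cytosolic and nuclear J proteins (-0.12 over 13) and the chaperones of the reticulum (-0.16 over 13) spread to both sides of 0. Without array 1 these 3 medians changed sign, to -0.029, 0.026 and 0.00055.

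**Figure D1:**
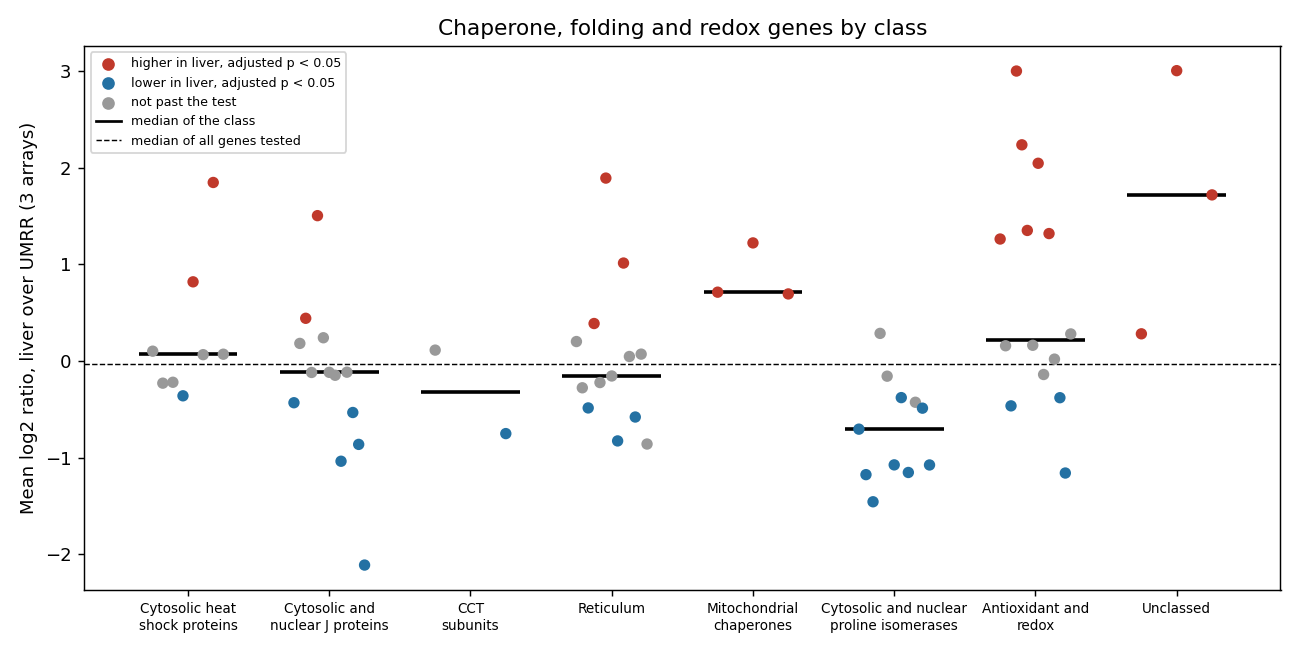
Mean log2 ratio of liver over UMRR (vertical axis) for each tested gene except Txnl4a, placed by class, with colour for the result of the limma test, a bar for the median of each class and a dashed line for the median of all genes tested. The proline isomerases lie mostly below 0 with a median of -0.71, while Gpx1 and Dnajc22 reach 3.00.

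Chaperones of the reticulum are described first. The master chaperone genes of this compartment are known to share a promoter element bound in the unfolded protein response, the ER stress element, spelled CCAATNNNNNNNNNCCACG. RefSeq promoters (assembly GRCm38.p6, from 250 bases before to 50 after each gene start) were found for 76 of the 91 genes and were searched on both strands. The element occurred in 6 of 104 promoters of these genes (5.77%) and in 39 of 32851 promoters in all (0.119%). Since such genes are already known to share the element, the higher share is no finding of these data. Each of the 6 belonged to a different reticulum gene: Hspa5, Calr, Calr4, Canx, Hsp90b1 and Pdia6. The stretches are shown because they mark the genes of the class that share this element, so that their ratios can be read side by side. Capitals mark the element, as spelled or as its reverse complement, and each stretch is printed 5′ to 3′ on the strand of its gene.
Hspa5, chr2:34772005-34772063, plus strand: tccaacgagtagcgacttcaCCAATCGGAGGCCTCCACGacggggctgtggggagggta
Calr, chr8:84847055-84847113, minus strand: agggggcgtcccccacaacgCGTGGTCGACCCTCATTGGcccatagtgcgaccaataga
Calr4, chr4:109218218-109218276, plus strand: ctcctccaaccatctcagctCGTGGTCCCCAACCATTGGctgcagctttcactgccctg
Canx, chr11:50325780-50325838, minus strand: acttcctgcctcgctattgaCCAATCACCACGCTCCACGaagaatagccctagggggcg
Hsp90b1, chr10:86705618-86705676, minus strand: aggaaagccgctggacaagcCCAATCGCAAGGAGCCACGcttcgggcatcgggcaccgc
Hsp90b1, chr10:86705513-86705571, minus strand: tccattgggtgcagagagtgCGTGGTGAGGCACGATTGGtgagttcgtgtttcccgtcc
Pdia6, chr12:17266471-17266529, plus strand: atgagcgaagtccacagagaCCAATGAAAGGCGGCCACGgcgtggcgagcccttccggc

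None of the 4 tested genes with this element was higher in liver with all arrays, beside 30.1% of all genes. Hsp90b1, the Hsp90 of the reticulum known as Grp94, stood at -0.76, -0.57 and -0.41 on arrays 1, 2 and 3 and was lower, with a mean of -0.58 ± 0.17 (SD, n = 3 arrays) and an adjusted p of 0.00364. Its other probe gave -0.57 and -0.27 on arrays 1 and 2. Canx, the membrane lectin calnexin, stood at -0.79, -0.43 and -0.24 and was lower too (mean -0.49 ± 0.28, adjusted p = 0.0168). Both genes were below 0 on every array, and both lost the call in a test without moderation of the variance (adjusted p = 0.0647 for Hsp90b1 and 0.150 for Canx).

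Pdia6, a protein disulfide isomerase, was split between arrays, at -0.63 on array 1 against 0.37 and 0.47 on arrays 2 and 3. It did not pass with all arrays (0.071 ± 0.61, adjusted p = 0.796) and passed as higher without array 1 (0.42, adjusted p = 0.00217). Calr4, a calreticulin relative, also had its lowest value on array 1 (-0.83, -0.11 and 0.11) and did not pass. The Hsp70 of the reticulum, Hspa5 or BiP, had a single measured value, 0.35 on array 2. Calreticulin itself, Calr, had a single value of 1.02 on array 3, so neither was tested.

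Among the J proteins of the reticulum 3 were higher in liver, 1 was lower and 2 did not pass. Of all genes, 30.1% were higher and 33.9% lower. Dnajb9, or ERdj4, a partner of BiP in clearing misfolded protein, stood at 2.37, 1.64 and 1.67, was the highest of the class (1.89 ± 0.41, 3.71-fold, adjusted p = 0.000131) and was at least 2-fold higher on every array. Dnajc25 stood at 1.13, 0.85 and 1.06 (1.01 ± 0.14, adjusted p = 0.000246). Dnajb11, or ERdj3, which hands nascent chains to BiP, was higher by less (0.20, 0.44 and 0.52, adjusted p = 0.0176). The call ended when array 2 (adjusted p = 0.0959) or array 3 (adjusted p = 0.166) was left out. The ER stress element was not found for any of these 3 J proteins, though promoters were found for only 76 of the 91 genes. The shorter element TGACGTGG lay in promoters of Dnajc25, which was higher, and of the proline isomerase Fkbp1b, which was lower. It lay in 2 of 104 promoters of these genes (1.92%) and in 222 of all promoters (0.676%).

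Of the remaining tested members for which no ER stress element was found, only Dnajc14 passed with all arrays. Dnajc14, a J protein of the reticulum membrane, stood at -1.01, -0.75 and -0.72 and was lower (-0.83 ± 0.16, adjusted p = 0.000672). Txndc16, a luminal protein with thioredoxin domains, had the widest spread of the class, with -1.99 on array 1 against -0.49 and -0.09 on arrays 2 and 3. It did not pass with all arrays (-0.86 ± 1.0, adjusted p = 0.0677) but passed as lower with any single array left out, at -0.29 for array 1 (adjusted p = 0.0404), -1.04 for array 2 (adjusted p = 0.0450) and -1.24 for array 3 (adjusted p = 0.00746).

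Dnajc10, or ERdj5, a disulfide reductase, did not pass, and its probes lay at -0.60 and 0.29. Fkbp11, a proline isomerase of secretory cells, stood within 0.11 of 0 on every array (mean 0.046, adjusted p = 0.681). Calr3 (0.20) and the membrane J protein Dnajb14 (-0.22) did not pass with all arrays, and passed without array 1 at 0.40 (adjusted p = 0.00335) and -0.29 (adjusted p = 0.0176). Of the genes measured on 1 array only, the disulfide isomerase Pdia5 stood at 2.02 on array 1 and the proline isomerase Fkbp9 at -1.57 on array 2, while Dnajc1 was at exact 0 throughout.

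**Figure D2:**
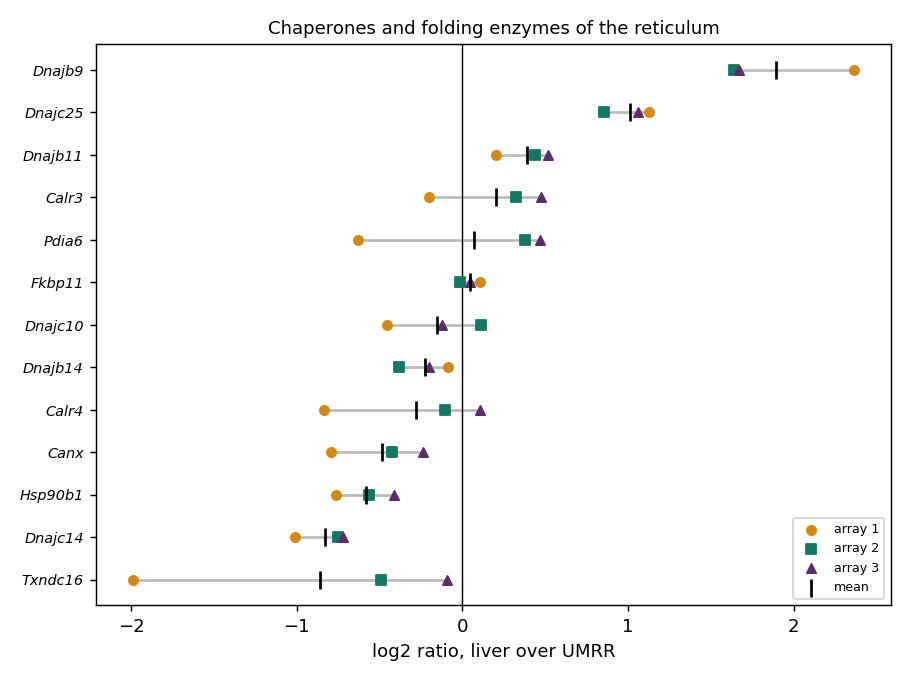
The log2 ratio of liver over UMRR (horizontal axis) on each of 3 arrays, with the mean as a tick, for the 13 tested genes of the reticulum. Dnajb9 and Dnajc25 lie above 0.85 on every array, Hsp90b1 and Canx below 0 on every array, and array 1 gives the lowest value of Txndc16, Calr4 and Pdia6.

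The cytosolic heat shock proteins showed few differences. Hspbp1, which releases nucleotide from Hsp70, was the highest of the 8 tested, at 1.71, 1.86 and 1.97 on the 3 arrays (1.85 ± 0.13, 3.60-fold higher in liver, adjusted p = 2.02e-05). A further Hspbp1 probe was at exact 0 throughout, and with exact zeros kept as ratios of 1 the gene stood at 0.92. The small heat shock protein Hspb3, known from muscle, followed at 0.70, 0.90 and 0.85 (adjusted p = 0.000494). Its muscle relative Hspb2 was lower, at -0.27, -0.54 and -0.27 (adjusted p = 0.0216), a call that ended when array 2 (adjusted p = 0.168) or array 3 (adjusted p = 0.0923) was left out.

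The inducible stress proteins of the class did not pass. Hsph1, the Hsp110 exchange factor, stood at -0.26 on array 1 and at 0.15 and 0.31 on arrays 2 and 3 (adjusted p = 0.667). Hspb1, or Hsp27, stood between -0.30 and -0.17 (adjusted p = 0.0791), while its other probe gave 0.23 and 0.047 on arrays 1 and 2. With that probe let in, Hspb1 stood at -0.115 (adjusted p = 0.386). Without array 1 both passed, Hsph1 as higher (0.23, adjusted p = 0.0390) and Hspb1 as lower (-0.25, adjusted p = 0.0278). Hspa1l (-0.23), Hspa12a (0.10) and Hspb9 (0.065) did not pass either.

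The constitutive Hsp70, Hspa8, had 3 probes, of which 1 gave 0.15 on array 2 and 0.067 on array 3, and the others were at exact 0 on every array. Hspa12b had values of -0.20 and 0.33 on arrays 2 and 3. Hsp70 genes are close in sequence, so a probe can take up RNA of a relative. Hsp90aa1, Hsp90ab1 and Hspa4 were not analysed here.

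J proteins of the cytosol and nucleus were lower for 5 of 13 genes (38.5%, beside 33.9% of all genes) and higher for 2 (15.4%, beside 30.1%). The lowest gene of all 68 was Dnajc9, a histone cochaperone of dividing cells, at -2.00, -2.14 and -2.19 (-2.11 ± 0.096, 4.32-fold lower in liver, adjusted p = 1.04e-05). Its other probe was at exact 0 on every array, and with exact zeros kept as ratios of 1 Dnajc9 stood at -1.06. Dnajc2, which works on nascent chains at the ribosome, stood at -0.95, -1.14 and -1.02 (adjusted p = 0.000170). Dnajc7, which links Hsp70 with Hsp90, was lower on 4 probes that agreed within 0.15 (mean -0.86 ± 0.070, adjusted p = 0.000331).

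Dnaja1, a main partner of cytosolic Hsp70, was lower at -0.38, -0.49 and -0.43 (adjusted p = 0.00656). Its 4 probes carry 1 sequence record, yet their means ran from -0.86 to -0.22, and the call ended when array 2 (adjusted p = 0.0552) or array 3 (adjusted p = 0.0684) was left out. Dnajc5b, a relative of the cysteine string protein of vesicles, stood at -0.75, -0.39 and -0.45 (adjusted p = 0.00597), and lost the call without moderation of the variance (adjusted p = 0.0807).

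On the liver side, Dnajb2, which hands Hsp70 clients to the proteasome, stood at 1.44, 1.56 and 1.50 (1.50 ± 0.061, 2.83-fold, adjusted p = 3.24e-05). Dnaja4 was higher by less (0.066, 0.54 and 0.71, adjusted p = 0.0341), with the call lost when array 2 (adjusted p = 0.121) or array 3 (adjusted p = 0.217) was left out. Dnajb1, an inducible partner of Hsp70, did not pass (-0.60, 0.24 and 0.0072). Dnajb6, which keeps polyglutamine proteins soluble, had the same order of arrays (-0.63, 0.24 and 0.040). Array 1 lay below both other arrays in either gene.

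The other 4 tested J proteins, Dnaja2, Dnajb4, Dnajb7 and Dnajc21, had means between -0.15 and 0.24 and did not pass. Dnajb3, Dnajb8 and Dnajc5 were measured on some arrays, with values between -0.069 and 0.91, and Dnajc6 was at exact 0. A heat shock element, searched as GAANNTTCNNGAA and TTCNNGAANNTTC on both strands, lay in promoters of Dnajb6, Hsph1 and Calr4 with 5 of 104 promoters holding it (4.81%), and in 198 of all promoters (0.603%). None of these 3 genes passed the test with all arrays, beside 64.0% of all genes.

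The CCT ring, which folds actin and tubulin, was thinly measured. Cct8 was lower at -0.49, -1.02 and -0.75 (-0.75 ± 0.27, adjusted p = 0.00241), while its other probe gave -0.20 and -0.012 on arrays 2 and 3. The call was lost without moderation of the variance (adjusted p = 0.0781), and with exact zeros kept as ratios of 1 the value was -0.41 (adjusted p = 0.0870). Cct4 stood between 0.087 and 0.15 (adjusted p = 0.312), and its partly measured probes ran from -0.61 to 0.47. Cct2 had 1 value, -0.73 on array 3, and Cct7 none.

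Mitochondrial chaperones taken by the naming rule were higher for 3 of 3 tested genes, beside 30.1% of all genes, while Trap1, outside the rule, was lower. Dnajc19, a J protein of the import motor in the inner membrane, stood at 1.46, 1.04 and 1.16 (1.22 ± 0.22, 2.33-fold, adjusted p = 0.000189) and was at least 2-fold higher on every array. Dnaja3, or Tid1, the partner of mitochondrial Hsp70, was higher at 0.56, 0.78 and 0.79 (adjusted p = 0.00106), but its probes disagreed, with means of 0.083 and 1.34. Dnajc4 stood at 0.82, 0.54 and 0.72 (adjusted p = 0.00131). The mitochondrial Hsp70 itself, Hspa9, gave 0.087 and 0.33 on arrays 1 and 2 only. Dnajc30 had 1 value (1.24 on array 2) and Dnajc15 none, while Hspd1 and Hspe1 were not analysed here.

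**Figure D3:**
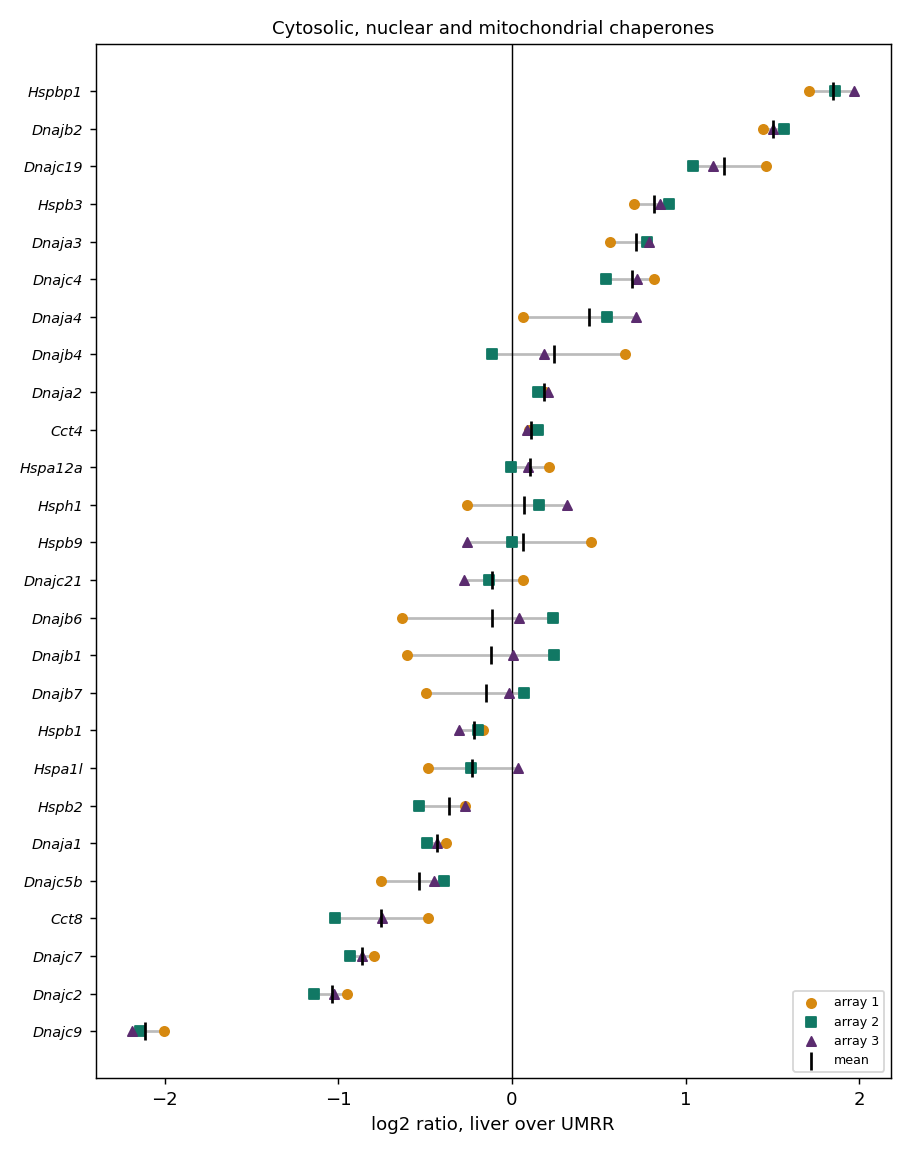
The log2 ratio of liver over UMRR (horizontal axis) on each of 3 arrays, with the mean as a tick, for the 26 tested heat shock proteins, J proteins, CCT subunits and mitochondrial chaperones. Hspbp1 lies above 1.7 on every array and Dnajc9 at or below -2.00, while Hsph1, Dnajb1 and Dnajb6 are on both sides of 0 with array 1 lowest.

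Proline isomerases, which turn the peptide bond before proline, comprise the cyclophilins and the FKBP family. Among the 11 tested genes of cytosol and nucleus, 8 were lower in liver and none higher, a share lower of 72.7% beside 33.9% of all genes. Fkbp3, a nuclear FKBP that binds DNA and chromatin proteins, stood lowest, at -1.18, -1.71 and -1.48 (-1.46 ± 0.27, 2.74-fold lower, adjusted p = 0.000132). Fkbp1b stood at -1.28, -1.21 and -1.04 (adjusted p = 0.000118). Its close relative Fkbp1a, or FKBP12, the target of rapamycin and FK506, was lower by less on 3 probes (-0.68, -0.66 and -0.77, adjusted p = 0.000783). Fkbp3 and Fkbp1b were the members of the class at least 2-fold lower on every array.

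Cyclophilins found with the spliceosome were lower as well. Ppih, a part of the U4/U6 particle, stood at -1.20, -0.93 and -1.33 (-1.15 ± 0.20, adjusted p = 0.000221). Another Ppih probe was at exact 0 throughout, and with exact zeros kept as ratios of 1 the gene stood at -0.58. Ppil4 stood at -1.06, -1.21 and -0.95 (adjusted p = 0.000177), with further probes at -0.45 on array 1 and 0.41 on array 2. Ppil3 (-0.49, adjusted p = 0.0119) and Ppie (-0.38, adjusted p = 0.0145) were lower by less. Leaving out array 2 ended both calls (adjusted p = 0.0762 for Ppil3 and 0.0572 for Ppie), as did leaving out array 3 (adjusted p = 0.0805 and 0.0823). Ppil2 rested on array 1, at -1.30 against 0.061 and -0.044 on the other arrays, and did not pass.

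Ppid and Fkbp4 are isomerases that work with Hsp90, and the difference between them was not tested. Ppid, a cyclophilin with a domain that binds Hsp90, was lower on each array, at -0.72, -1.29 and -1.21 (-1.07 ± 0.31, adjusted p = 0.000680), a call lost without moderation of the variance (adjusted p = 0.0606). Fkbp4, or FKBP52, a partner of steroid receptors, stood at -0.59 on array 1 but at 0.93 and 0.51 on arrays 2 and 3. It did not pass with all arrays (adjusted p = 0.396), and without array 1 it was higher in liver (0.72, adjusted p = 0.000575). Ppia, the abundant cyclophilin A, stood at -0.0040, -0.29 and -0.18 over 5 probes and did not pass (adjusted p = 0.217), though it passed as lower without array 1 (-0.23, adjusted p = 0.0347). Its probe means ran from -0.48 to 0.037. Ppia has many processed pseudogenes and its value is uncertain. Ppil6 was at exact 0 on its probe.

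**Figure D4:**
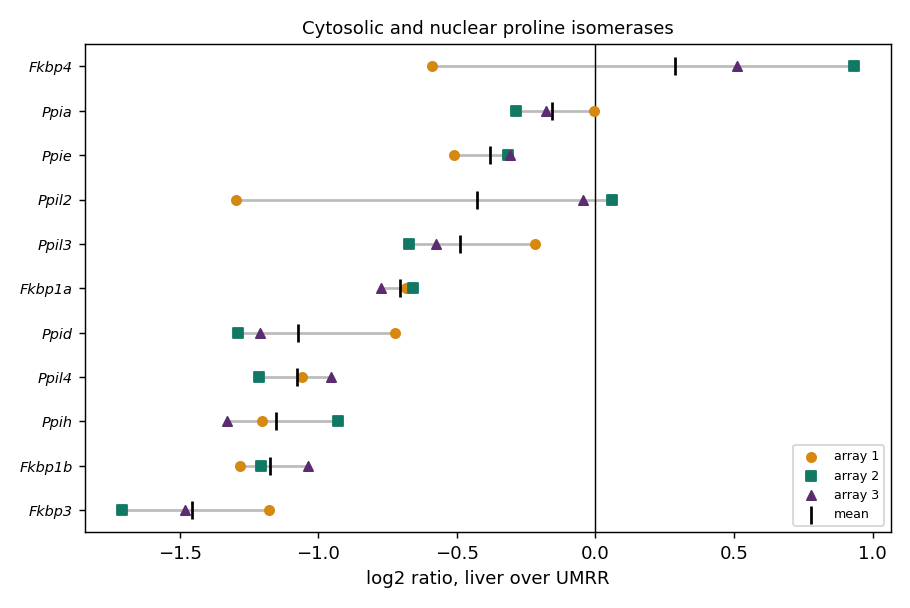
The log2 ratio of liver over UMRR (horizontal axis) on each of 3 arrays, with the mean as a tick, for the 11 tested proline isomerases of cytosol and nucleus. The 8 genes past the test lie below 0 on every array, while array 1 stands below the other arrays in Fkbp4 and Ppil2.

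In the antioxidant and redox class, 14 genes were tested, of which 6 were higher in liver (42.9%, beside 30.1% of all genes) and 3 lower (21.4%, beside 33.9%), at a median of 0.22. Enzymes that remove peroxide or superoxide and proteins of the thioredoxin fold were set apart here by symbol, after their values had been seen, so the contrast is a description only. Of the 5 tested peroxidases, peroxiredoxins and superoxide dismutases 4 were higher (80.0%, beside 30.1% of all genes), with a median of 2.04. Of the 9 tested thioredoxins, glutaredoxins and their relatives 2 were higher (22.2%, beside 30.1%) and 3 lower (33.3%, beside 33.9%), with a median of 0.019.

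Gpx1, the selenoenzyme that reduces hydrogen peroxide with glutathione, stood at 2.65, 3.19 and 3.16 (3.00 ± 0.31, 7.99-fold higher in liver, adjusted p = 1.04e-05). Its other probe gave 3.13 on array 2 and exact 0 on the others. With exact zeros kept as ratios of 1, Gpx1 fell short of the test (2.02, adjusted p = 0.0996). Gpx4, which reduces lipid hydroperoxides within membranes, stood at 2.32, 2.11 and 2.27 (2.24 ± 0.11, 4.71-fold, adjusted p = 8.98e-06). Of its 5 probes, 4 carry the same sequence record and had means between 2.40 and 2.51, while the fifth had 1.36. With the 4 averaged first, a setting chosen after seeing the data, Gpx4 stood at 1.91. The plasma peroxidase Gpx3 had 1 value, 0.66 on array 2.

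Sod2, the manganese superoxide dismutase of mitochondria, stood at 2.21, 1.92 and 2.01 on probes that agreed within 0.068 (2.04 ± 0.15, 4.13-fold, adjusted p = 1.58e-05). A further Sod2 probe was at exact 0 throughout, and with exact zeros kept as ratios of 1 the gene stood at 1.36. Sod1, the copper and zinc enzyme of the cytosol, gave 2.34 and 2.56 on arrays 2 and 3 and exact 0 on array 1, so it was not tested with the rest. The extracellular Sod3 was at exact 0. Prdx1, a peroxiredoxin that draws on thioredoxin, stood at 1.32, 1.28 and 1.45 (1.35 ± 0.086, 2.55-fold, adjusted p = 5.45e-05). Prdx1 also had a probe at exact 0 throughout, and with exact zeros kept as ratios of 1 it stood at 0.675. Its relative Prdx2, abundant in red blood cells, did not pass at 0.24, 0.051 and 0.20 over 4 probes (adjusted p = 0.180), and passed with exact zeros kept as ratios of 1 (0.17, adjusted p = 0.0335). The probe means of Prdx2 ran from -0.036 to 0.36. Of the erythroid markers, the globin genes Hba-a1 (4.94 ± 0.34), Hba-a2 (4.72) and Hbb-bh1 (3.09) were higher. Slc4a1 (0.28, adjusted p = 0.0556) and Epor (0.22, adjusted p = 0.0854) did not pass. The part of red blood cells in these values was not tested. Gpx1, Gpx4, Sod2 and Prdx1 were each at least 2-fold higher on every array, and the catalase gene Cat was not analysed here.

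Of the thioredoxins proper, Txn2 passed the test and Txn1 did not. Txn2, the mitochondrial form, stood at 1.50, 1.09 and 1.36 (1.32 ± 0.21, 2.49-fold, adjusted p = 0.000128). Its other probe was at exact 0 on every array, and with exact zeros kept as ratios of 1 Txn2 stood at 0.66. Txn1, the cytosolic form, stood at 0.20, -0.45 and -0.17, with probes that agreed within 0.13, and did not pass (adjusted p = 0.410). Without array 1 it passed as lower (-0.31, adjusted p = 0.0198). Txnrd1, which reduces Txn1, did not pass (0.049, 0.67 and 0.12) and was higher without array 1 (0.39, adjusted p = 0.0241), while its other probe gave -0.55 on array 2. The lowest value of Txn2, 1.09, lay above the highest of Txn1, 0.20; the difference between these genes was not tested.

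The glutaredoxin Glrx was higher with a wide spread, at 0.30 on array 1 against 1.86 and 1.62 (1.26 ± 0.84, adjusted p = 0.00944), and lost the call without moderation of the variance (adjusted p = 0.177). Glrx2, a mitochondrial glutaredoxin, stood at 0.43, -0.15 and 0.19 and did not pass. Glrx3, a cytosolic carrier of iron-sulfur clusters, was lower at -0.46, -0.52 and -0.41 (adjusted p = 0.00488), and with exact zeros kept stood at -0.21 (adjusted p = 0.246). A further Glrx3 probe gave 0.90 on array 1 only.

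Txnl1, a thioredoxin-like protein of the proteasome, was the lowest redox gene, at -1.13, -1.11 and -1.24 over 4 spots of 1 sequence record (-1.16 ± 0.070, 2.23-fold lower, adjusted p = 9.46e-05). Txndc9, a regulator of the CCT ring, was lower too (-0.46, -0.24 and -0.44, adjusted p = 0.0149), with the call lost without array 3 (adjusted p = 0.134). Its 4 probes had means from -0.77 to -0.21. Txndc17 did not pass (0.019). Txnrd2 and Txnrd3 were at exact 0. The antioxidant response element, searched as TGACNNNGC on both strands, lay in promoters of Prdx1, Sod1 and Txnrd1 in this class. It lay in 19 of 104 promoters of the genes described here (18.3%) and in 12.4% of all promoters.

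**Figure D5:**
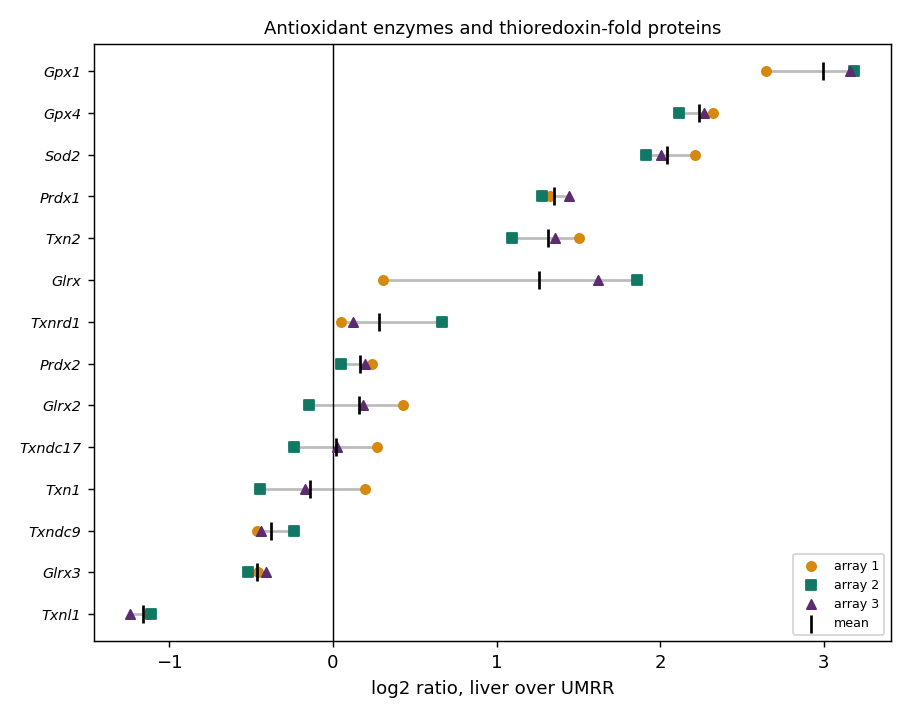
The log2 ratio of liver over UMRR (horizontal axis) on each of 3 arrays, with the mean as a tick, for the 14 tested antioxidant and thioredoxin-fold genes. Gpx1, Gpx4, Sod2, Prdx1 and Txn2 lie above 1 on every array, Txnl1 lies below -1, and Glrx ranges from 0.30 to 1.86.

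A few genes that the naming rule took have no fixed place in these classes. Dnajc22, a J protein with several membrane spans, was as high as Gpx1, at 2.44, 3.36 and 3.21 (3.00 ± 0.49, 8.02-fold, adjusted p = 3.42e-05). Txndc15, a membrane protein with a thioredoxin domain, stood at 1.78, 1.74 and 1.63 (1.72 ± 0.083, 3.29-fold, adjusted p = 2.12e-05). Both were at least 2-fold higher on every array. Dnajc16 was slightly higher (0.28, adjusted p = 0.0411), with the call lost when array 2 (adjusted p = 0.114) or array 3 (adjusted p = 0.197) was left out. Txnl4a, a splicing factor with a thioredoxin fold, did not pass, on probes at -0.20 and 0.68. Hspbap1 was measured on arrays 1 and 3, at 1.25 and 0.53.

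Genes of the same pathways that the naming rule does not take were read from fixed lists. Of 14 tested cochaperones of the cytosol 7 were lower in liver, beside 33.9% of all genes, and 0 higher, beside 30.1%, with a median of -0.28. They included St13, or Hip, which holds Hsp70 in its substrate-bound state (-1.06 ± 0.11, adjusted p = 0.000170), and the prefoldin subunit Pfdn5 (-0.66, adjusted p = 0.00152). Of 14 genes of reticulum folding and stress 2 were higher (14.3%, beside 30.1% of all genes) and 6 lower (42.9%, beside 33.9%), with a median of -0.17. Sil1, the exchange factor of BiP, was higher (0.80 ± 0.11, adjusted p = 0.000544), as was Xbp1, the transcription factor of the unfolded protein response (0.43, adjusted p = 0.00917), whose call was lost without array 3 (adjusted p = 0.119). Ddit3, the stress factor known as CHOP, was lower on each array (-0.79 ± 0.022, adjusted p = 0.000443), and so was Sel1l, a scaffold of protein disposal (-0.73, adjusted p = 0.00111).

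Mitochondrial proteostasis genes outside the naming rule were measured in 2 cases, and they went opposite ways. Trap1, the Hsp90 of mitochondria, was lower at -1.96, -1.72 and -1.88 (-1.85 ± 0.12, 3.61-fold, adjusted p = 1.90e-05), while the protease subunit Clpp was higher (0.78, adjusted p = 0.000750). Of 10 further redox genes 5 were higher and 2 lower, beside 30.1% and 33.9% of all genes, with a median of 0.22. Ccs, the copper chaperone of Sod1, stood at 2.29, 2.62 and 2.62 (2.51 ± 0.19, 5.68-fold, adjusted p = 9.28e-06). The methionine sulfoxide reductases Msra (2.30) and Msrb2 (1.93) and the metallothionein Mt1 (2.15) were higher as well. Pgd, which makes NADPH in the pentose phosphate pathway, was lower (-1.14 ± 0.12, adjusted p = 0.000128).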

How the data were processed

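The deposited table holds 1 signed log ratio per probe and array, as processed by the authors; the deposited values were taken as log2, an assumption. Per the labels, both RNAs were purchased and amplified in a single round, with Cy5 in the liver channel and Cy3 in the UMRR channel. The scanner, background correction, dye normalization, log base and direction were not stated there. Over the 5520 genes used, the array medians were -0.043, -0.028 and -0.0066. Gene names came from the platform annotation. Exact zeros were taken as missing, and probes with a ratio on all 3 arrays were averaged by symbol within each array. The mean ratio of each gene was tested against 0, two-sided, with limma 3.58.1 (lmFit, then eBayes; R 4.3.3), and p-values were adjusted by Benjamini-Hochberg over all genes at a threshold of 0.05. The code was tested on simulated data. Classes were described by counts and medians, with no list test. The naming rule uses no measured value, but this group of genes, its classes and the lists were chosen with earlier results of these data known. The rule for named genes took a list of core genes, the 3 highest and 3 lowest of each class and the called member furthest against its class median; other members were described with their values seen. Dim probes were not filtered, since the table gives no signal. Precision is limited by having 3 arrays. Alternatives were leave-one-out over arrays, a minimum of 2 arrays per probe, exact zeros kept as ratios of 1, centring, scaling, the median probe, trend and robust settings, no moderation, a test against a 2-fold difference and, chosen after seeing the data, averaging spots of 1 sequence record first.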

Additional observations from a re-analysis of the deposited data

How the results depend on the processing

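No call of a tested gene changed under centring, scaling, the median probe, trend and robust settings, probes let in with values on 2 arrays, or spots of 1 record averaged first. Against a 2-fold difference 9 of the 68 genes were higher and 2 lower, and of the 40 other pathway genes 4 and 1. Txn2 (adjusted p = 0.0934), Dnajc19 (0.278), Fkbp1b (0.332) and Txnl1 (0.356) were at least 2-fold on every array but did not pass that test. Shares of all genes under the settings in this paragraph are not given, so its counts describe only changes from the main fit. Without moderation 12 genes were lower, and 13 calls were lost (Canx, Cct8, Dnaja4, Dnajb11, Dnajc16, Dnajc5b, Glrx, Hsp90b1, Hspb2, Ppid, Ppie, Ppil3 and Txndc9) while Dnaja2 was gained. With probes on at least 2 arrays 14 of the other pathway genes were higher, and the CCT median was -0.19. With exact zeros kept as ratios of 1 the medians were -0.0633 for CCT, 0.41 for mitochondrial chaperones, -0.52 for proline isomerases and 0.11 for the redox class, and Cct4 turned to -0.0042. There 12 calls were lost (Canx, Cct8, Dnaja4, Dnajb11, Dnajc16, Glrx, Glrx3, Gpx1, Hsp90b1, Hspb2, Ppil3 and Txndc9) and Dnaja2 and Prdx2 were gained. With the median probe the isomerase median was -0.62. Leaving out each array in turn, the median ranged from -0.029 to 0.063 for cytosolic heat shock proteins and from 0.68 to 0.79 for mitochondrial chaperones. The values of genes not past the test that changed sign ranged from -0.47 to 0.00055 for Calr4, -0.30 to 0.12 for Dnajb1, -0.30 to 0.14 for Dnajb6, -0.26 to 0.026 for Dnajb7, -0.039 to 0.72 for Fkbp4, -0.13 to 0.23 for Hspb9, -0.053 to 0.23 for Hsph1, -0.13 to 0.42 for Pdia6, -0.67 to 0.0089 for Ppil2, -0.31 to 0.013 for Txn1 and -0.11 to 0.15 for Txndc17. No called gene changed sign under any of these settings. Why the other values moved was not tested. Signal over background was not analysed here. Each ratio already pairs both RNAs on 1 array, so no further replicate block was fitted.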
